A study of Mus musculus with 8 samples.

Results

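A set of 10 nuclear genes that help govern how many mitochondria a cell makes and what shape they take was followed in mouse subcutaneous fat: Esrra, Nrf1, Gabpa, Tfam, Tfb1m, Tfb2m, Mfn1, Mfn2, Opa1 and Dnm1l. They were chosen by symbol from the deposited read counts, and all 10 have a row among the 18022 genes of the table and passed the filter on low counts that left 14556 genes for testing. The tissue came from 4 mice whose adipocytes lack both copies of Pkd1 by their genotype label (KO, Pkd1adipo delta/delta) and from 4 mice labelled with the floxed alleles alone (WT, Pkd1(flox/flox)), and each library is a mouse of its own. Both groups were on C57BL/6J, back-crossed 4 times. The kinase deleted is protein kinase D1, called Pkd1 in the labels and Prkd1 among the gene symbols. Neither the labels nor the files used here state a Cre driver, sex, age or diet. The study asks how fat changes when adipocytes lose this kinase.

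Mitochondria carry a small genome of their own, but almost all of their proteins are encoded in the nucleus. Nuclear factors of the biogenesis programme (ERR alpha from Esrra, NRF1, and GABP, whose DNA-binding subunit is Gabpa) act with PGC-1 coactivators on nuclear genes for the respiratory chain and on Tfam, Tfb1m and Tfb2m, whose products package the mitochondrial genome and serve its transcription and its ribosome. Mitochondria also fuse and divide: Mfn1 and Mfn2 join the outer membranes, Opa1 joins the inner membranes and shapes the cristae, and Dnm1l, the dynamin known as DRP1, constricts the organelle for fission. In fat this programme is known for the mitochondria-rich state of brown and beige adipocytes.

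The libraries held between 2617755 and 2873457 reads. Prkd1 had 71, 108, 84 and 94 reads in KO1 to KO4, against 88, 72, 94 and 73 reads in WT1 to WT4, so the label was not visible in its whole-gene count; reads from undeleted exons and from cells other than adipocytes are included, and directions below are between libraries labelled KO and WT. White adipocyte markers (11 genes, among them Adipoq and Plin1) summed to 20988 to 25601 CPM (read counts scaled to a common library total) in KO and to 20950 to 24282 CPM in WT. Skeletal muscle markers (22 of 23 listed genes have a row) summed to 3716, 2349, 502 and 4224 CPM in KO1 to KO4, against 458, 257.6, 662 and 157 CPM in WT1 to WT4, so that KO1, KO2 and KO4 stood above every WT library and KO3 stood among them (exact two-sided permutation p = 0.0571). B and T cell markers (9 genes) summed to 46.7 to 64.8 CPM in KO and 69.2 to 133 CPM in WT (exact permutation p = 0.0286, the smallest that 4 against 4 can give). Most of that sum was Ighm, at 44.5 ± 8.34 CPM in KO and 83.4 ± 27.3 CPM in WT (SD, n = 4 each). The other 8 genes were all under the count filter, and without Ighm the sums overlapped, at 8.40 to 10.6 CPM in KO and 9.42 to 22.9 CPM in WT (exact permutation p = 0.0571; chosen after seeing the data). Liver markers (7 genes) summed to 111 to 505 CPM in KO and 131 to 1449 CPM in WT, where WT1 and WT4 were highest at 1449 and 1273 CPM. Macrophage, endothelial, progenitor and brown adipocyte marker sums overlapped between the labels. In bulk tissue, fewer cells of a type and less RNA per cell cannot be told apart.

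None of the 10 regulators passed the test between labels. Esrra had the largest positive difference, 1.28-fold with a 95% interval from 1.07 to 1.53, and its 4 KO libraries all lay above its 4 WT libraries. Mfn1 was 1.21-fold higher in KO on average and Tfam stood at 0.80 of its WT level, both with intervals that include no change and with libraries that overlap. The other 7 had fitted folds between 0.98 and 1.10. In edgeR's quasi-likelihood test over all genes 0 of 10 regulators were called at an adjusted p of 0.05, as were 0 of 14556 genes (0%). DESeq2, edgeR's likelihood ratio test, edgeR's exact test and limma-voom each called 0 of the 10 as well. They called 0.263%, 0.234%, 1.54% and 0% of all genes, so that 0 of 10 is near the background. The exact test assumed the same dispersion (variability between mice) for all genes. At an unadjusted p under 0.05 there was 1 regulator, Esrra, where 4.48% of all genes tested lay, and non-overlapping libraries with KO higher were found for 1 of 10 regulators and 1.53% of all genes tested. The log2 fold change was above 0 for 7 of the 10 and below 0 for 3; the median was 0.08 for the regulators and 0.00 for all genes tested.

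**Figure D1:**
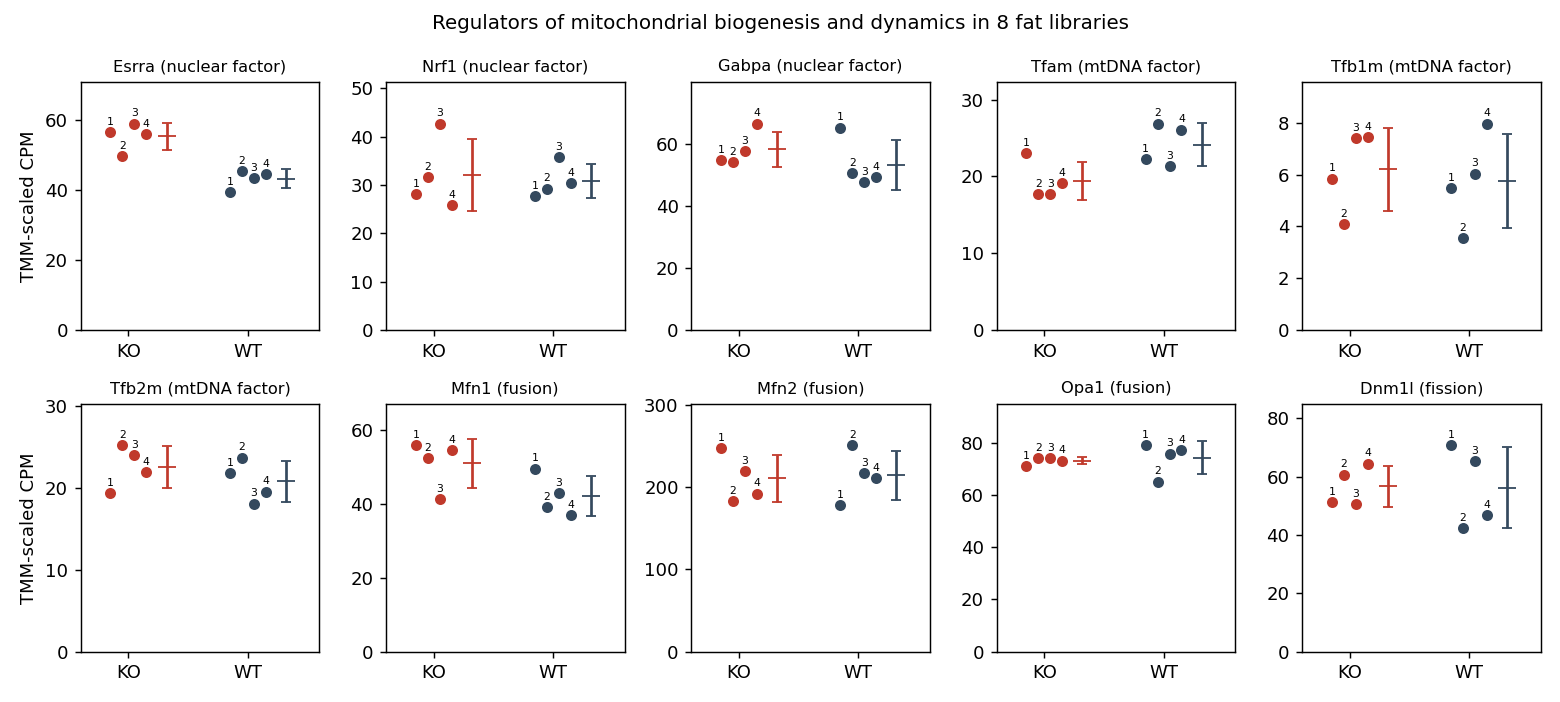
Scaled CPM (vertical axes, from 0) of the 10 regulators in the 4 KO and the 4 WT libraries, with the replicate number above each point and the mean and SD as a bar beside them. Only in the Esrra panel do all 4 KO points (49.8 to 59.0 CPM) lie above all 4 WT points (39.4 to 45.4 CPM).

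Among the nuclear factors, Esrra (ENSMUSG00000024955), an orphan nuclear receptor that drives genes of oxidative metabolism, had 56.6, 49.8, 59.0 and 55.9 CPM in KO1 to KO4. In WT1 to WT4 it had 39.4, 45.4, 43.3 and 44.5 CPM. The lowest KO library, KO2, thus lay above the highest WT library, WT2, and the raw reads were separated likewise, with 155, 146, 167 and 158 in KO against 108, 115, 122 and 123 in WT. The means were 55.3 ± 3.92 CPM in KO and 43.2 ± 2.68 CPM in WT (SD, n = 4 each). The log2 fold change was 0.36 ± 0.12 (SE; edgeR quasi-likelihood test, unadjusted p = 0.00965, adjusted p = 0.998), which ranked Esrra at place 122 among all genes tested. It kept its direction in 20 of 20 alternative analyses, with log2 values from 0.32 to 0.45 and unadjusted p from 0.00605 to 0.0862, and 0 of them passed the adjusted threshold (smallest adjusted p 0.813). All these analyses reuse the same separated counts, and leaving libraries out could hardly have turned the sign. The kit did not mark strand, and in the GENCODE M21 annotation 73 exon bases of Esrra, 1.66% of its annotated exon length, are shared with Trmt112 on the opposite strand. Trmt112 itself had a log2 fold change of -0.06 ± 0.21 (SE).

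Nrf1 (ENSMUSG00000058440), a factor that binds the promoters of many respiratory chain genes, was spread widely in KO. It had 28.1, 31.7, 42.7 and 25.8 CPM in KO1 to KO4 and 27.7, 29.2, 35.8 and 30.4 CPM in WT1 to WT4. Its highest and its lowest value, in KO3 and KO4, were both in libraries labelled KO, and the groups overlapped. The log2 fold change was 0.06 ± 0.17 (SE), and without KO3 it was -0.11. Gabpa (ENSMUSG00000008976) had 54.8, 54.2, 57.5 and 66.5 CPM in KO1 to KO4 and 65.2, 50.6, 47.5 and 49.3 CPM in WT1 to WT4. All but WT1 of the WT libraries lay below the KO libraries, and WT1 was second only to KO4. The log2 fold change of Gabpa was 0.13 ± 0.14 (SE), 0.25 without WT1 and 0.06 without KO4. Its exons share 397 bases, 6.98% of its annotated exon length, with Atp5j on the opposite strand, a subunit of the ATP synthase with a log2 fold change of 0.02 ± 0.12.

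Among the factors that act on mitochondrial DNA, Tfam (ENSMUSG00000003923), which coats and bends the mitochondrial genome and starts its transcription, had the lowest fitted fold of the 10. It had 23.0, 17.7, 17.7 and 19.1 CPM in KO1 to KO4, and 22.2, 26.9, 21.3 and 26.1 CPM in WT1 to WT4. KO2, KO3 and KO4 lay below every WT library, while KO1 lay above WT1 and WT3. The means were 19.4 ± 2.51 CPM in KO and 24.1 ± 2.77 CPM in WT (SD, n = 4 each), and the log2 fold change was -0.32 ± 0.16 (SE; 95% interval -0.66 to 0.03; edgeR quasi-likelihood test, unadjusted p = 0.0691, adjusted p = 0.998). On 50 to 72 reads per library, counting error is a coefficient of variation of 12.9% at the mean count, about as large as the spread between libraries of a label, which was 12.98% in KO and 11.5% in WT. The negative sign held in 20 of 20 alternatives, from -0.45 to -0.26.

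Tfb2m (ENSMUSG00000026492), the partner of the mitochondrial RNA polymerase that opens the promoter, had 19.4, 25.2, 24.0 and 21.9 CPM in KO1 to KO4 and 21.9, 23.7, 18.1 and 19.6 CPM in WT1 to WT4. The groups overlapped, and the log2 fold change was 0.12 ± 0.16 (SE). Tfb1m (ENSMUSG00000036983), which is related to Tfb2m and methylates the small mitochondrial ribosomal RNA, was the least abundant of the 10 and had 16, 12, 21 and 21 reads in KO1 to KO4 against 15, 9, 17 and 22 reads in WT1 to WT4. Its log2 fold change of 0.10 ± 0.30 (SE) has a 95% interval from 0.68-fold to 1.68-fold. Its counting error at the mean count was a coefficient of variation of 24.5%, beside an estimated 20.5% between mice. In the annotation, 142 of its exon bases are shared with Tiam2 on the opposite strand. Its lowest values were in WT2 and KO2, one library of each label.

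The sequences just before the annotated starts of 4 of the genes are shown because the factors described here are known to act on promoters of this programme, and because Esrra and Tfam lay at the opposite ends of the fitted folds. They are RefSeq sequences of build GRCm38.p6, printed 5′ to 3′ on the gene's strand, 60 bases each, with capitals for a match to the motif searched. That motif is GCATGCGC, a core of the NRF1 site, for Esrra and Opa1, and CCGGAAGT, the site of GABP and other ETS factors, for Tfam and Mfn1.
Esrra (chr19:6921809-6921868, minus strand): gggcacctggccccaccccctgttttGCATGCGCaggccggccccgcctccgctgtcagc
Opa1 (chr16:29579249-29579308, plus strand): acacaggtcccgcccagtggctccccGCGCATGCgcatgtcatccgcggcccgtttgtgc
Tfam (chr10:71238058-71238117, minus strand): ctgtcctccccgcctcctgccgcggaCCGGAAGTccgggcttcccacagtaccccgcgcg
Mfn1 (chr3:32529412-32529471, plus strand): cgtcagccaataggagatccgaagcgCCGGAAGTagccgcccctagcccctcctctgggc
The matches begin 34, 59, 47 and 44 bases before the start of Esrra, Opa1, Tfam and Mfn1. In Opa1 the capitals are the reverse complement of the motif, and a match on the other strand overlaps it.

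All 10 regulators have a promoter in that table (250 bases before to 50 after each start). Searched on both strands, GCATGCGC was found in 3 of the 10, which are Esrra, Opa1 and Tfb2m, and in 3.05% of all genes with a promoter. CCGGAAGT was found in 2 of the 10, Tfam and Mfn1, and in 4.31% of all genes. AAGGTCA, the core of the element bound by ERR receptors, was found in 0 of the 10 and in 5.38% of all genes. The motifs were picked after the promoters had been seen, and a match in these letters is a description and not a site of binding. The log2 fold changes were 0.36, -0.02 and 0.12 for Esrra, Opa1 and Tfb2m, and -0.32 and 0.28 for Tfam and Mfn1, and none of these genes passed the test.

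**Figure D2:**
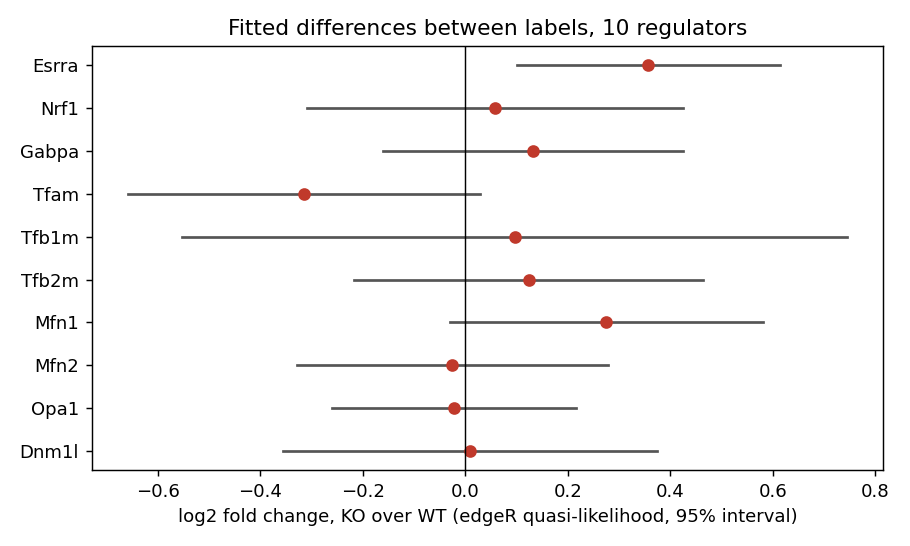
Log2 fold change of KO over WT (horizontal axis) of the 10 regulators from edgeR's quasi-likelihood fit, as points with 95% intervals. The interval of Esrra, from 0.10 to 0.61, is the only one of the 10 that leaves out 0, and the test's adjusted p over all genes was 0.998.

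Among the genes of fusion, Mfn1 (ENSMUSG00000027668), an outer membrane GTPase that tethers neighbouring mitochondria, had 55.9, 52.5, 41.3 and 54.5 CPM in KO1 to KO4. In WT1 to WT4 it had 49.6, 39.1, 42.9 and 36.9 CPM. KO1, KO2 and KO4 lay above every WT library, and KO3 lay among them, below WT1 and WT3. The means were 51.0 ± 6.64 CPM in KO and 42.1 ± 5.53 CPM in WT (SD, n = 4 each), and the log2 fold change was 0.28 ± 0.14 (SE; edgeR quasi-likelihood test, unadjusted p = 0.0739, adjusted p = 0.998). Mfn2 (ENSMUSG00000029020), the related GTPase that also ties mitochondria to the endoplasmic reticulum, had 247, 183, 220 and 192 CPM in KO1 to KO4 and 178, 251, 218 and 211 CPM in WT1 to WT4. The extremes of Mfn2 were both in WT libraries, and its log2 fold change was -0.02 ± 0.14 (SE). Opa1 (ENSMUSG00000038084) was the most even of the 10, at 71.2, 74.3, 74.1 and 73.3 CPM in KO1 to KO4 and 79.1, 65.2, 75.9 and 77.1 CPM in WT1 to WT4. The KO libraries lay inside the WT range, and the 95% interval of the fold, from 0.83 to 1.16, was the narrowest of the 10. The spread of Opa1 in KO, a coefficient of variation of 1.93%, was below the 6.99% that counting error gives at its mean count.

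Dnm1l (ENSMUSG00000022789), the fission dynamin, had 51.1, 60.7, 50.5 and 64.4 CPM in KO1 to KO4 and 70.7, 42.3, 65.3 and 46.7 CPM in WT1 to WT4. The WT libraries fell into a high pair, WT1 and WT3, and a low pair, WT2 and WT4, with all 4 KO libraries between them. The means were 56.7 ± 6.95 CPM in KO and 56.2 ± 13.9 CPM in WT (SD, n = 4 each), and the log2 fold change was 0.01 ± 0.17 (SE). An annotated antisense transcript, which has no row among the counts used here, shares 243 exon bases with Dnm1l. The count of Opa1 over that of Dnm1l in the same library, in which the scaling cancels, was 1.39, 1.22, 1.47 and 1.14 in KO1 to KO4 and 1.12, 1.54, 1.16 and 1.65 in WT1 to WT4. The KO values of this ratio lay inside the WT range.

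Mfn1 and Esrra were both above all WT values in KO1, KO2 and KO4, and the genes differed in KO3. Esrra had 56.6, 49.8 and 55.9 CPM in KO1, KO2 and KO4, against at most 45.4 CPM in WT. The 3 libraries with the highest muscle sums, KO1, KO2 and KO4, had the 3 highest Mfn1 values (52.5 to 55.9 CPM). KO3, whose muscle sum of 502 CPM was inside the WT range of 157 to 662 CPM, had 41.3 CPM of Mfn1, inside the WT range of 36.9 to 49.6 CPM. Single muscle markers did not all place KO3 inside the WT range. KO3 lay above every WT library for Actn2, Mb, Myh1, Myh2, Mybpc1 and Eno3. Its Myh1 was 26.1 CPM against at most 16.7 CPM in WT, and its Mb was 63.5 CPM against at most 56.9 CPM. Its Myh2 was 8.83 CPM against at most 4.61 CPM in WT. For the other muscle markers with a row KO3 lay inside the WT range. Its Myh4, for example, was 23.7 CPM, below the 107.5 CPM of WT3. With the muscle sum as a covariate the log2 fold change of Mfn1 was -0.11, and with KO3 as the only library labelled KO it was -0.03. The covariate separates most of the KO from the WT libraries, so that muscle and label cannot be told apart for Mfn1. The same limit holds for every gene fitted with it, Esrra and Tfam included. KO3 had the highest Esrra of all 8 libraries and the lowest Tfam. The log2 fold change of Esrra was 0.45 with the covariate and 0.45 with KO3 as the only KO library, and that of Tfam was -0.32 and -0.45; a lone KO library is assumed to vary as the WT libraries do. Nrf1 was highest in KO3 as well, and its log2 fold change was 0.39 with the covariate (edgeR quasi-likelihood test, unadjusted p = 0.137) and 0.47 with KO3 alone (unadjusted p = 0.0628), against 0.06 over all 8 libraries. KO3 also had the highest brown adipocyte marker sum, 182.5 CPM (7 of 8 listed genes, Ppargc1a among them). The sums were 87.6 to 134 CPM in the other KO libraries and 103 to 156.5 CPM in WT. Kcnk3 gave 68.8 CPM of the sum in KO3. Of the genes summed only Cidea and Ppargc1a were highest in KO3. Cox8b was highest in KO1, Kcnk3 in WT4 and Otop1 in WT2. The part of brown adipocytes in these values was not tested. Dnm1l stood at -0.36 with the covariate and -0.16 with KO3 alone. Without WT1 and WT4, the libraries with high liver markers, Esrra, Tfam and Mfn1 had 0.32, -0.31 and 0.31.

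**Figure D3:**
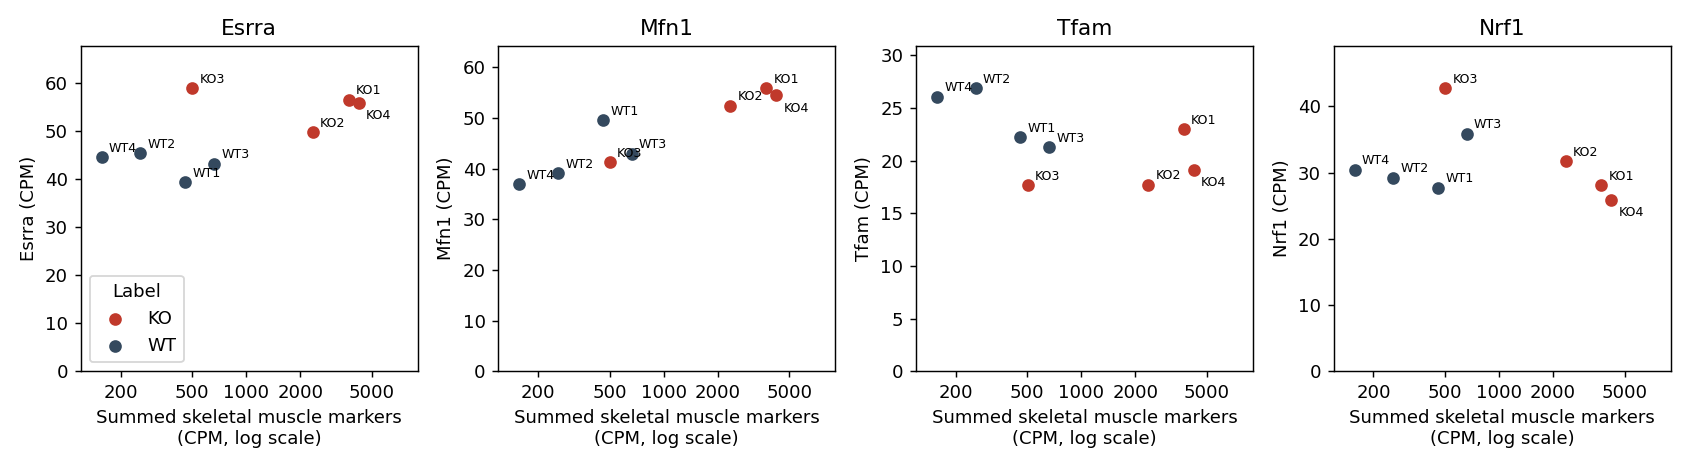
Scaled CPM (vertical axes, from 0) of Esrra, Mfn1, Tfam and Nrf1 in each library against its summed skeletal muscle markers (horizontal axes, CPM on a log scale). KO3, at a muscle sum of 502 CPM among the WT libraries, has the highest Esrra and Nrf1 and the lowest Tfam, while its Mfn1 of 41.3 CPM is among the WT values.

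Levels were compared between genes per kilobase of annotated exon (GENCODE M21 lengths, matched by Ensembl identifier, over all isoforms, so that the order is approximate). On that scale of CPM per kilobase, Mfn2 was the most abundant, at 40.6 ± 5.57 in KO and 41.3 ± 5.77 in WT (SD, n = 4 each), and its lowest library lay above the highest of any other regulator. Esrra followed at 12.6 ± 0.895 in KO and 9.84 ± 0.612 in WT, then Dnm1l at 10.9 ± 1.34 and 10.8 ± 2.66, Gabpa at 10.2 ± 1.004 and 9.35 ± 1.43, and Opa1 at 9.30 ± 0.180 and 9.44 ± 0.791. Tfb2m and Mfn1 came next with means over all 8 libraries of 7.75 and 7.62, then Tfam at 4.90, Nrf1 at 3.06 and Tfb1m at 1.66. Neighbours in this order overlapped in their ranges over the 8 libraries from Esrra down to Nrf1. The breaks without overlap lay between Mfn2 and Esrra and between Nrf1 and Tfb1m. Mfn2 reads outnumbered Mfn1 reads in every library, by 4.42, 3.49, 5.32 and 3.53 in KO1 to KO4 and by 3.59, 6.41, 5.07 and 5.72 in WT1 to WT4, with overlapping groups.

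**Figure D4:**
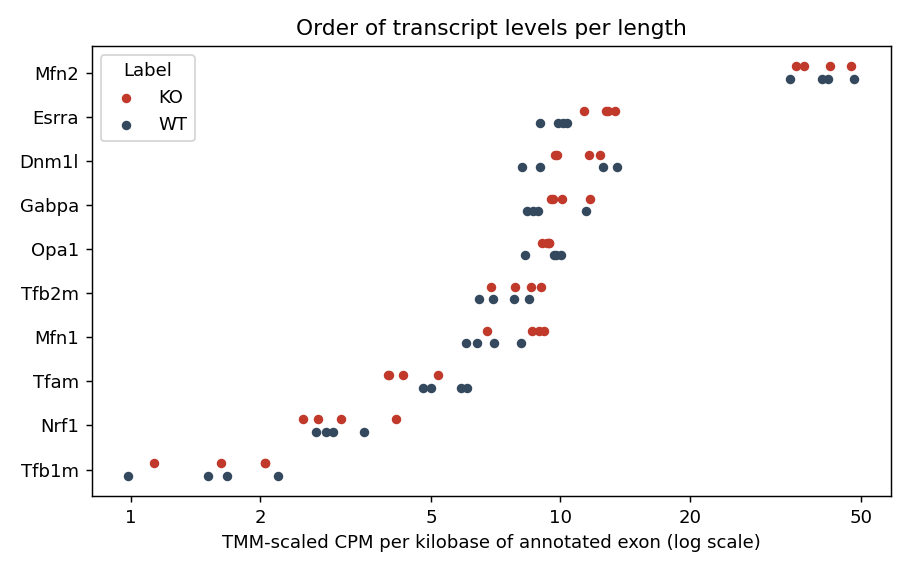
Transcript level of each regulator in each library as scaled CPM per kilobase of annotated exon (horizontal axis, log scale), KO above WT within each row and rows ordered by the mean over the 8 libraries. Mfn2 stands apart at the top with a mean of 40.9 and Tfb1m apart at the bottom with a mean of 1.66, and the ranges of the other 8 run into each other in sequence.

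Most of the regulators varied little from library to library. The highest library over the lowest ranged from 1.21 for Opa1 to 2.24 for Tfb1m, with a median ratio of 1.51, against 1.67 for the 12621 genes tested whose mean CPM was inside the regulators' range. Tfb1m, and by little Dnm1l, lay above that background median. Those genes were not matched to each regulator by level. Summed over the 10 genes, the libraries held 613, 553, 594 and 581 CPM in KO1 to KO4 and 559, 577, 574 and 550 CPM in WT1 to WT4. Those sums overlapped, and Mfn2 took the largest part of them. Outside the gene lists used here, the genes whose centred log2 CPM over the 8 libraries lay closest to the mean of the 10 regulators were Nploc4, Dpp8 and Vps33a, with root mean square differences of 0.04, 0.04 and 0.05 (log2) among 14404 genes compared. Profiles with little variation lie close to each other by this measure.

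None of the surrounding genes of the pathway passed the test between labels. Of 95 genes in 6 further lists, 86 were tested, 58 above and 28 below 0 on the log2 scale with a median of 0.08. Of the 86, 0 were called by edgeR's quasi-likelihood test, by DESeq2, by the likelihood ratio test or by limma-voom. Over all genes those tests called 0%, 0.263%, 0.234% and 0%, so these counts set the 86 apart from no other genes. Calls by edgeR's exact test, which called 1.54% of all genes, were not counted for the 86. At an unadjusted p under 0.05 there were 0 of the 86, where 4.48% of all genes tested lay.

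The coactivators, receptors and partners of biogenesis had 11 positive and 3 negative values among 14 tested and a median log2 fold change of 0.13. Ppargc1a, the PGC-1 alpha coactivator with which ERR alpha acts, had 12.7 ± 4.01 CPM in KO and 11.4 ± 2.78 CPM in WT (SD, n = 4 each), a log2 fold change of 0.15 ± 0.25 (SE). Ppargc1a was highest in KO3, at 18.004 CPM, the library with the highest Esrra and Nrf1, and stood at 13.5, 10.6 and 8.85 CPM in KO1, KO2 and KO4. Ppargc1b, its relative, had 23.2 ± 1.79 CPM in KO and 21.6 ± 6.34 CPM in WT. Gabpb1, which supplies the transactivating subunit for Gabpa, had 24.4 ± 1.23 CPM in KO and 21.5 ± 2.09 CPM in WT and was the only gene of the 86 whose libraries did not overlap (log2 fold change 0.18 ± 0.14, edgeR quasi-likelihood test, unadjusted p = 0.238), a share to be read against 2.93% of all genes tested; it is named here for that after its values were seen. The smallest p values of the list belonged to Nfe2l2, the antioxidant response factor, at 0.26 ± 0.14, Nrip1, a corepressor that restrains oxidative genes in fat, at 0.18 ± 0.14, and Yy1, a partner of PGC-1 alpha, at 0.14 ± 0.11 (log2 fold change ± SE).

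Genes of mitochondrial DNA replication and transcription had 11 positive and 6 negative values among 17 tested, with a median of 0.05. Polrmt, the mitochondrial RNA polymerase served by Tfam and Tfb2m, had 19.2 ± 3.596 CPM in KO and 18.5 ± 2.19 CPM in WT. Lonp1, the matrix protease that degrades Tfam, stood at -0.29 ± 0.15 (log2 fold change ± SE, edgeR quasi-likelihood test, unadjusted p = 0.0858), and Nsun4, a methyltransferase of the mitochondrial ribosome, at -0.30 ± 0.21. Mterfd3, now Mterf2 and a member of the mitochondrial termination factor family, stood at 0.35 ± 0.23 on 15 to 31 reads.

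Fission factors other than Dnm1l had 4 positive and 5 negative values among 9 tested, with a median of -0.02. Fis1 and Mff, outer membrane proteins of which Mff recruits Dnm1l, had log2 fold changes of -0.04 ± 0.13 and 0.09 ± 0.15 (SE). Smcr7 and Smcr7l, now Mief2 and Mief1 and further receptors for Dnm1l, had 0.38 ± 0.24 and -0.13 ± 0.15, and Inf2, an actin-assembling formin of fission, had 0.14 ± 0.12. Fusion, inner membrane processing and cristae genes had 11 positive and 9 negative values among 20 tested, with a median of 0.01. Oma1, the stress-activated protease that cleaves Opa1, had -0.23 ± 0.18, Stoml2 0.19 ± 0.16 and Fam73a, now Miga1, -0.19 ± 0.21. Mitophagy and transport genes had 9 positive and 4 negative values among 13, with a median of 0.07. Park2, the ubiquitin ligase parkin, had 0.46 ± 0.31 and was spread from 37 to 165 reads. Fundc1 and Fkbp8, mitophagy receptors, had 0.20 ± 0.18 and -0.15 ± 0.13.

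The mitochondrial genome is transcribed by Polrmt with Tfam and Tfb2m. The 13 protein-coding ones summed to 31793, 33631, 28249 and 31165 CPM in KO1 to KO4 and to 29082, 25008, 34280 and 26734 CPM in WT1 to WT4, in libraries enriched for poly(A). The highest and the lowest sum were both in WT libraries, WT3 and WT2, and the groups overlapped (exact two-sided permutation p = 0.343). Of the 13, 12 had positive log2 fold changes and 1 a negative value, with a median of 0.14. Most are cut from a shared precursor, so they do not count as independent genes. The smallest p values were those of mt-Atp6, mt-Co3 and mt-Nd6, at 0.26 ± 0.17, 0.16 ± 0.14 and 0.16 ± 0.14 (log2 fold change ± SE).

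**Figure D5:**
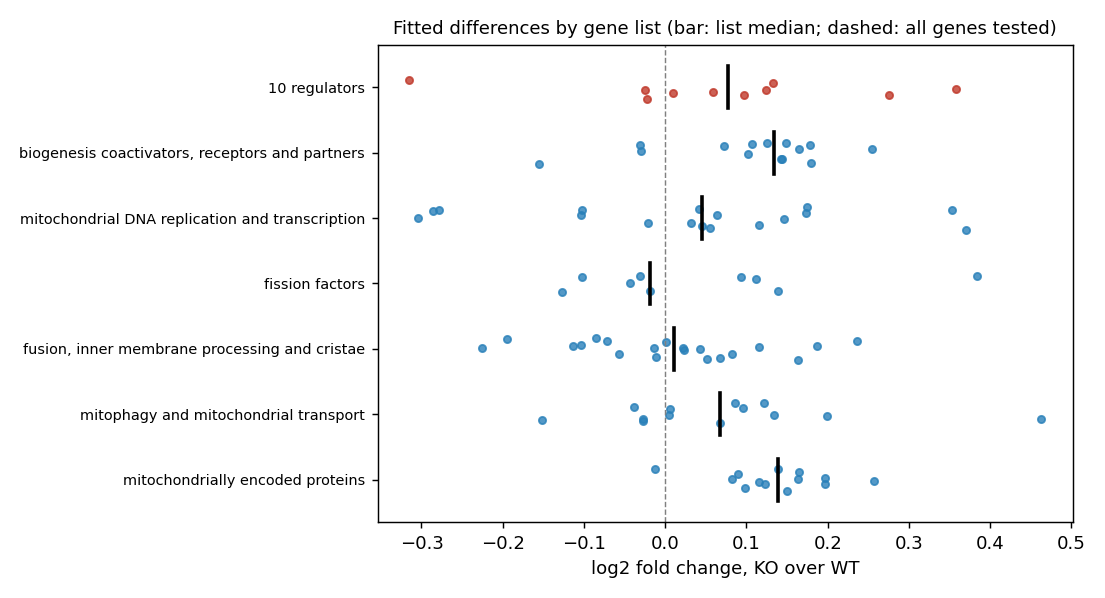
Log2 fold change of KO over WT (horizontal axis) of each gene tested, by list, with the list median as a black bar and the median of all genes tested as a dashed line at 0.00. List medians lie between -0.02 for fission factors and 0.14 for mitochondrially encoded proteins, and 0 genes passed the adjusted threshold.

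In the authors' deposited table, where 2.42% of 18022 genes have an adjusted p under 0.05, the 10 regulators all have an adjusted p of 1. The authors' deposited table gives log2 fold changes of 0.35 for Esrra, 0.27 for Mfn1 and -0.32 for Tfam, with unadjusted p-values of 0.108, 0.22 and 0.184 from the authors' edgeR analysis.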

How the data were processed

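Per the labels' protocols, poly(A) RNA was made into libraries with a kit that keeps no strand information. FastQC, Bowtie2, edgeR and mm9 are named in the submitters' processing notes without versions, and no source used here names a read counter or an annotation. Counts were deposited by the authors as unnormalized whole reads for each Ensembl gene in each mouse, beside a table of log2 fold changes, log2 mean CPM and p-values whose columns carry edgeR's names, per the file headers.

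Columns were assigned through the mouse identifiers, and groups came from titles. Counts were tested with edgeR 4.0.16 (R 4.3.3; quasi-likelihood F test, TMM scaling, filterByExpr, robust fit, label as the only term) with Benjamini-Hochberg adjustment over all 14556 genes tested and a threshold of 0.05. The common dispersion was 0.0337. Standard errors were derived from the F statistic, and CPM values were scaled by TMM. Marker sums were compared by exact permutation on log2 CPM with a pseudocount of 0.5. The procedure was tested on simulated data with changes larger than any fitted for the regulators, so differences of their size were not tried. Alternatives were other scalings and filters, DESeq2 1.42.0, edgeR's likelihood ratio and exact tests, limma-voom (limma 3.58.1), a replicate block, a muscle covariate and libraries left out. The exact test was run with a common dispersion shared by all genes. Leaving out WT1 and WT4 was chosen after seeing the data.

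The members and gene lists were chosen with earlier results of these data known. Named were the 10 regulators, per further list the 3 genes with the smallest p, 6 fixed genes (Ppargc1a, Ppargc1b, Polrmt, Fis1, Mff and Oma1), and 3 genes of the most similar profile. Outside this rule, Gabpb1 and 2310042D19Rik were named after their values were seen. Of the 95 further genes listed, 7 had no matching row and 2 lay under the filter. Older symbols were matched where the table uses them. Libraries within a label differed beyond counting noise (chi-square per gene at least 4.45). Promoters are from RefSeq, GRCm38.p6, which is not the files' build; no gene coordinates were taken from it for the counts.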

Additional observations from a re-analysis of the deposited data

How the results depend on the processing

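Of the 10 regulators, 0 passed the adjusted threshold under any of the 20 alternatives (Tfb1m was not tested with a minimum mean of 20 reads), and Esrra, Tfam, Gabpa and Tfb2m kept their sign in each. The libraries of Esrra do not overlap between labels, so leaving some out could hardly turn its sign. Over all genes the quasi-likelihood test called 0, whereas DESeq2 called 36 and the likelihood ratio test 34. The exact test, with a common dispersion for all genes, called 224. Leaving out 1 library gave between 0 and 50 in the quasi-likelihood test, the 50 without KO3. The medians of the regulators stayed between 0.03 and 0.12. With the muscle covariate the log2 fold changes of Dnm1l, Mfn1 and Mfn2 turned to -0.365, -0.109 and 0.05005, and with KO3 as the only KO library to -0.159, -0.0303 and 0.0366. Without WT1 and WT4, Nrf1 turned to -0.0223 and Opa1 to 0.052, and with limma-voom Tfb1m turned to -0.035. The cause was not tested. With 1 library left out, Dnm1l ranged from -0.104 to 0.138, Mfn2 from -0.11 to 0.0583 and Nrf1 from -0.109 to 0.151. Opa1 ranged from -0.0799 to 0.00813, Tfb1m from -0.0687 to 0.291, Gabpa from 0.0637 to 0.246 and Tfb2m from 0.063 to 0.192. The log2 difference of the muscle sum ranged from 2.28 to 3.32, with an exact permutation p of 0.0286 without KO3. KO3 was the only KO library inside the WT range, and that p is the smallest such a split can give. Gabpa was 0.0637 without KO4 and 0.246 without WT1, and Tfb2m was 0.063 without WT3.

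Deviations of same-numbered KO and WT libraries correlated negatively (-0.14, -0.29, -0.20 and -0.27), so no shared deviation by number was seen. Such correlations cannot decide whether the mice were paired. With the replicate block 0 genes were called, the regulators' median was 0.08 and Esrra stood at 0.357. Tfb1m, on 9 to 22 reads per library, had the largest counting error of the 10.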

Other observations

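Esrra and Tfam, set against each other within a library, gave a ratio that needs no scaling. Esrra reads over Tfam reads were 2.46, 2.81, 3.34 and 2.93 in KO1 to KO4 and 1.77, 1.69, 2.03 and 1.71 in WT1 to WT4. The lowest KO value lay above the highest WT value, and the means were 2.88 ± 0.363 in KO and 1.80 ± 0.159 in WT (SD, n = 4 each). The pair was picked after its values were seen, as the genes with the largest differences in each direction, so the separation is a description and was not tested. Tfam over Tfb2m was 1.19, 0.703, 0.735 and 0.871 in KO1 to KO4 and 1.02, 1.13, 1.18 and 1.33 in WT1 to WT4, with KO1 among the WT libraries. The summed CPM of the mitochondrially encoded transcripts per CPM of Tfam was 1382, 1898, 1600 and 1631 in KO1 to KO4 and 1308, 931, 1610 and 1025 in WT1 to WT4, with WT3 among the KO libraries. The mitochondrial sum alone overlapped between the labels. All these ratios contain Tfam, the regulator with the lowest fitted fold, so they partly restate its values, and none was tested.

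The gene 2310042D19Rik, now Perm1 and a muscle-enriched regulator induced by PGC-1 and ERR factors, lay under the count filter and is named after its values were seen. It had 16, 9, 2 and 18 reads in KO1 to KO4 and 3, 3, 6 and 2 reads in WT1 to WT4, so its high libraries were KO1, KO2 and KO4, those with the highest skeletal muscle sums (3716, 2349 and 4224 CPM, against 502 CPM in KO3 and 157 to 662 CPM in WT). The part of muscle in these reads was not tested.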
